A study of Rattus norvegicus with 4 samples.

Results

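The mRNAs of 9 myelin proteins (Mbp, Mobp, Cnp, Cldn11, Gpm6b, Mal, Mag, Mog and Opalin) were followed in rat oligodendrocyte precursor cells (OPCs) after silencing of Gpr17, a G protein-coupled receptor that OPCs carry transiently on their way to oligodendrocytes. The members were all non-control probes whose RefSeq transcript belonged to one of these genes, 17 probes among the 45565 that had a value on every array, which cover 16568 named genes. The OPCs came from the cortices of Sprague-Dawley rats at postnatal day 2, whose tissue was pooled, and were expanded for 3 days with bFGF and PDGF. After the change to differentiating medium, siNEG cells received 50 nM of a non-targeting RNA pool and siGPR17 cells 50 nM of a siRNA pool against Gpr17, both with the same lipid reagent, and all were lysed 48 h later, at day 2 of differentiation. Each group had 2 samples, described as independent but not said to come from separate cell preparations, so the p-values measure the spread between these samples, which may be technical. RNA was hybridised to 4 one-color Agilent rat arrays, 1 sample on each. The comparison asks how the transcripts of the myelin sheath respond while the receptor is silenced in maturing cells.

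Myelin is the membrane that oligodendrocytes wrap around axons, and its compact layers are sealed on their cytoplasmic side by Mbp, whose mRNA travels into the processes before it is translated. Mobp is a further basic protein of compact central myelin, while Cnp, a cyclic nucleotide phosphodiesterase, lies in the non-compact cytoplasmic channels. Cldn11 forms the tight junctions between the turns, Gpm6b and Mal are membrane proteins with several transmembrane segments, and Mag, Mog and Opalin are surface glycoproteins that face the axon, the outside of the sheath or the paranodal loops. Most of these genes are switched on late in maturation by the transcription factors Sox10 and Myrf.

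In short, no member passed the study's thresholds, and the members lay on both sides of 0. The probes of Mbp, Cldn11 and Mag had higher mean signals after Gpr17 silencing, whereas those of Mog, Mobp, Cnp and Gpm6b had lower ones. The largest difference among the tested members was that of Mog, whose brighter probe was 1.60-fold lower in siGPR17 than in siNEG OPCs, with an adjusted p of 0.210 (limma, n = 2 per group). Mal stayed near background on all arrays, and Opalin was well above it on 1 siNEG array alone.

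The arrays were of like quality, with 26997 to 28244 probes well above background on each and no saturated non-control spot. The 75th percentile of each array, to which signals were scaled, lay between 564.9 and 624.1 intensity units, and log2 values correlated between arrays with r from 0.992 to 0.996 across probes, which are not independent replicates. All arrays shared 1 slide and 1 scan, but each group lay in its own slide column, so position and group cannot be told apart. The probe for Gpr17 gave normalized signals of 1107 and 1113 in siNEG and 652 and 639 in siGPR17, a log2 difference of -0.78 ± 0.085 (SE). With an adjusted p of 0.209 (limma, n = 2 per group), Gpr17 itself did not pass the study's thresholds either. Of the marker genes of oligodendrocyte precursors, which include Gpr17, 9 of 10 tested were lower, and the summed signal of the list ran from 96815 to 100800.1 in siNEG and from 75734 to 80156 in siGPR17. For premyelinating oligodendrocytes 6 of 8 were higher, with sums of 105710.3 to 110046 and of 112800.2 to 114977, which came mostly from Bcas1. Their log2 differences were 0.95 for Cnksr3 and 0.54 for Rras2, but only 0.09 for Bcas1 and Enpp6, 0.06 for Itpr2 and 0.03 for Fyn. Bmp4, at -0.05, and Nkx2-2, at -0.09, were lower.

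Marker lists of other cells also differed between the groups, and their part in the results was not tested. A marker is called at background here when none of the arrays had it well above background. Neuronal markers were lower for 10 of 11 genes, with sums of 19570.5 to 20576 in siNEG and 17039.9 to 17793 in siGPR17, and with Slc17a7 at background. Endothelial markers were higher for 5 of 7, with sums of 1168 to 1292 against 1657 to 1749.9, with Cldn5, Emcn and Pecam1 at background. Microglial markers were lower for 8 of 9 genes, while the sums overlapped, at 2674 to 3991 and 2699.98 to 3151, with C1qc, Csf1r and Ptprc at background. Of the microglial genes, 2 (Aif1, -0.56, and P2ry12, -0.32 on the log2 scale) were lower at an unadjusted p under 0.05 (limma), where 8.73% of all genes were. In either direction 5 of 11 neuronal, 3 of 7 endothelial, 4 of 11 astrocyte, 1 of 5 fibroblast and mural and 3 of 8 Schwann cell markers reached that p. So did 5 of 10 oligodendrocyte precursor markers, all lower and with Gpr17 among them, and 2 of 8 premyelinating ones, both higher. Over all genes 1884 of 11656 did. Astrocyte markers were split, 5 higher and 6 lower, with log2 differences of -1.35 for Aqp4, -0.61 for Gfap, -0.37 for Slc1a3 and 0.50 for S100b. The groups did not overlap for 2 higher and 4 lower of the 11 astrocyte markers, these genes among them, close to the 53.4% of all genes. The astrocyte sums, at 119016 to 133879.8 and 122590.4 to 123886, came mostly from Aldoc, and Gjb6 was at background. Fibroblast and mural markers were higher for 4 of 5, with Tagln lower at -0.93, sums of 471 to 598 and 572 to 593, and 6 of 12 markers at background. For Schwann cells, whose myelin also holds Mbp and Mag, 2 of 8 markers were higher, with 0.80 for Pmp2, and 6 lower, with -0.94 for Ngfr and -0.49 for Prx. The Schwann cell sums, at 85172 to 88722 and 86234 to 86298, came mostly from Sox2, and Cdh19 and Dhh were at background. In bulk RNA, fewer cells of a type and less RNA per cell cannot be told apart.

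The start regions of the members are shown for motifs of the factors named above, which the members do not share evenly. In the RefSeq table of the rat assembly GRCr8, windows from 250 bases before to 50 bases after the start were listed for 7 of the 9 members, all but Mog and Gpm6b. Those of Cldn11 and Mag, whose signals were higher, and of Cnp and Mobp, whose signals were lower, are shown 5′ to 3′ on the gene's own strand. Capitals mark CTGGNAC, a motif of Myrf, and ACAAAG or ACAATG, motifs of Sox factors, on either strand (on the other strand, GTNCCAG and CTTTGT or CATTGT).
Cldn11 promoter, chr2:114149490-114149789, minus strand: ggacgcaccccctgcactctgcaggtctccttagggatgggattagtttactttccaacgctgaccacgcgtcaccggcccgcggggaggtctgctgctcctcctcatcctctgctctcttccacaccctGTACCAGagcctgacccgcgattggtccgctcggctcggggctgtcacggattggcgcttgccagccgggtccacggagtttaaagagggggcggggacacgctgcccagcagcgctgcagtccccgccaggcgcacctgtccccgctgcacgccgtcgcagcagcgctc
Mag promoter, chr1:95290995-95291294, minus strand: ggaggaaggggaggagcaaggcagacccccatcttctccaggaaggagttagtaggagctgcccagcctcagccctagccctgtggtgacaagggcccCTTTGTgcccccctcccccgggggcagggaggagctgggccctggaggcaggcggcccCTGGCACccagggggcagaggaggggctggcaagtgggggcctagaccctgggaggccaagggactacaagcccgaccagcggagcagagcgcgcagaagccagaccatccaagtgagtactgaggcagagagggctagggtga
Cnp promoter, chr10:86011254-86011553, plus strand: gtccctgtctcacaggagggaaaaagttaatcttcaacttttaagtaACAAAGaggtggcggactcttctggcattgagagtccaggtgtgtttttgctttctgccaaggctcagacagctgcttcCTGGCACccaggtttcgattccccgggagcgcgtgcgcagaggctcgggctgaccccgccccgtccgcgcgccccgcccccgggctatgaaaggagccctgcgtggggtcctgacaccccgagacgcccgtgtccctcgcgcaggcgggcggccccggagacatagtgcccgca
Mobp promoter, chr8:128746982-128747281, plus strand: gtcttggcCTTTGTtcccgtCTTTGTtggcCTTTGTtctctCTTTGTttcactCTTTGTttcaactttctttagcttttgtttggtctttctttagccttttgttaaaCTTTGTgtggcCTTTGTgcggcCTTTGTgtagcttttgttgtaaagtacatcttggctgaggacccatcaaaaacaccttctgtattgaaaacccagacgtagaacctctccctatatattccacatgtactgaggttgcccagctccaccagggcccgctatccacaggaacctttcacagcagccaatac
Cldn11 held 1 match to the Myrf motif, which began 120 bases upstream of the start. Mag held 1 for Myrf at 94 bases and 1 for Sox at 152 bases, and Cnp 1 for Myrf at 124 bases and 1 for Sox at 203 bases. Mobp held 8 Sox matches, all of the letters CTTTGT, between 242 and 120 bases upstream, and no Myrf match. Mbp has 2 listed starts, of which one window held 1 Myrf match and no Sox match, and the other 3 Sox matches and no Myrf match. Opalin held 1 Myrf and 3 Sox matches and Mal 1 Myrf match. Over all 33469 windows in the table, 18.2% held the Myrf motif and 29.1% a Sox motif. A match here is a run of letters and no evidence that a factor binds. Of the tested members with a Myrf match, Cldn11, Mag and Mbp, the last in 1 of its 2 windows, were above 0 in the comparison and Cnp was below it. Mog and Gpm6b, both below 0, had no window to search, so this tally is incomplete. A link between motifs and these differences was not tested.

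**Figure D1:**
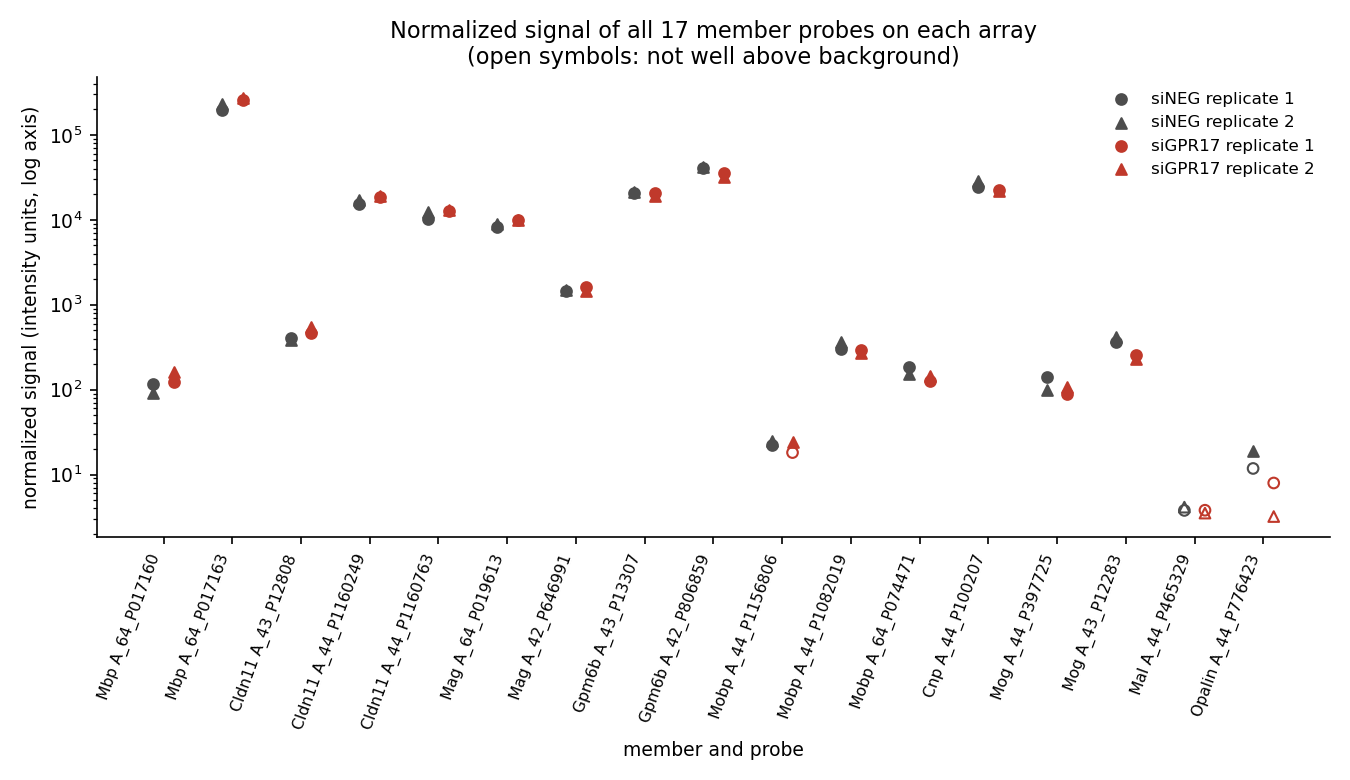
Normalized signal of all 17 member probes on the 4 arrays, on a log axis in intensity units scaled to the 75th percentile of each array; each symbol is 1 array, open where the probe was not well above background. Heights cannot be compared between probes; the brighter Mog probe is 1.60-fold lower in siGPR17, and Mal and Opalin lie near background.

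Across the tested probes the background of differences was high, and the members have to be read against it. Of 28016 probes well above background on at least 2 arrays, 1 passed a fold of 1.5 together with an adjusted p under 0.07, which is 0.00357%, and 0 of the 15 tested member probes did (limma). At an unadjusted p under 0.05, 2 member probes were higher, one each of Mbp and Cldn11, where 7.58% of all tested probes were, and 2 were lower, one each of Mog and Gpm6b, where 9.12% were. By other tests 1 member probe, that of Mog, passed with trend and robust spread, where 1.5% of all probes did, and with normexp background correction, where 0.864% did, and 0 passed with the methods' t-test after Benjamini-Hochberg adjustment. The groups did not overlap for 6 member probes that were higher and 5 that were lower, against 27.4% and 25.2% of all tested probes, 52.6% in all. A fold of 1.5 was reached by no member probe upwards, where 3.06% of all probes reached it, and by 1 downwards, where 3.58% did. The median log2 difference was -0.06 over the 15 member probes and 0.0094 over all tested probes, and 7 of the 15 member probes lay above 0, where 51.6% of all did. Adjusted p-values of the members ran from 0.210 to 0.777.

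**Figure D2:**
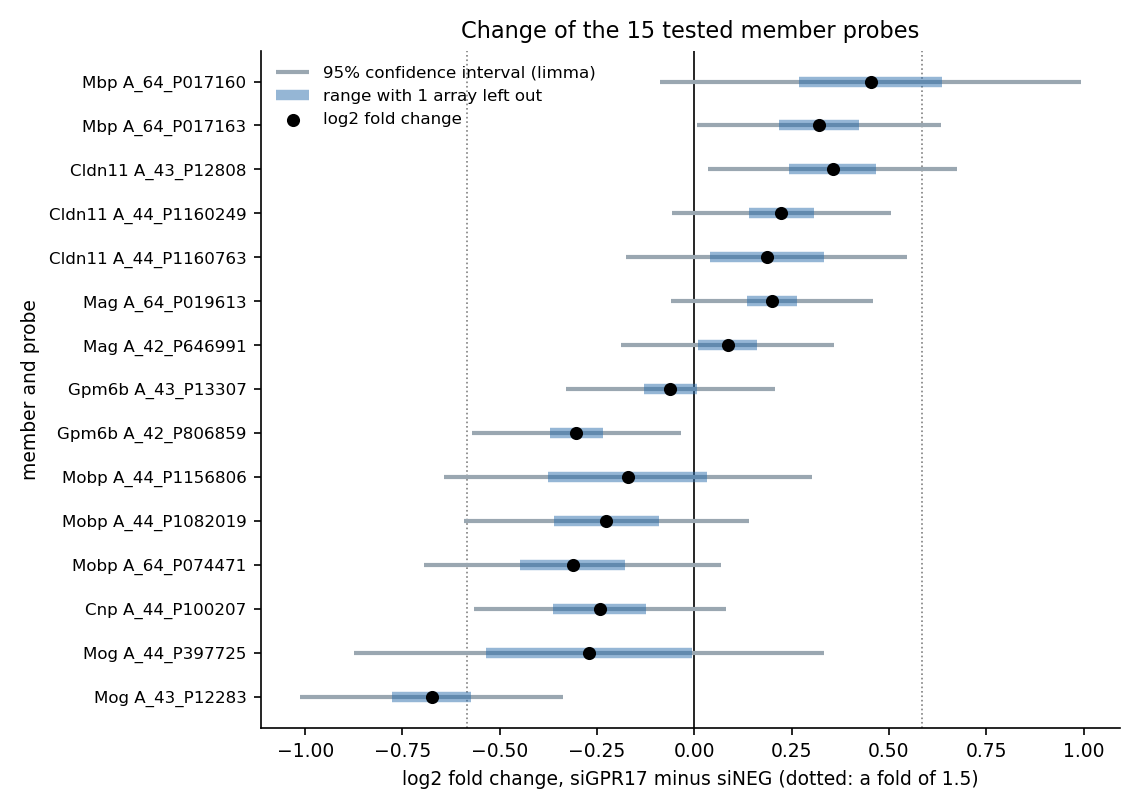
Log2 difference (siGPR17 minus siNEG) of the 15 tested member probes, with points for the limma estimate, thin bars for its 95% confidence interval, broad bars for the range when 1 array is left out, and dotted lines at a fold of 1.5; 2 arrays per group. Probes of Mbp, Cldn11 and Mag lie above 0 and those of Gpm6b, Mobp, Cnp and Mog below it, and the intervals of 4 probes leave out 0.

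Mbp, which glues the cytoplasmic faces of the membrane together, was read by 2 probes. Probe A_64_P017163 gave 197178 and 227699 in siNEG and 256521 and 272873 in siGPR17, so the groups were separate and siGPR17 was the higher one. The log2 difference was 0.32 ± 0.11 (SE), with a 95% interval from 0.0060 to 0.63 and an adjusted p of 0.294 (limma, n = 2 per group). Probe A_64_P017160, on another Mbp transcript record, gave 117 and 90.5 in siNEG and 124 and 159 in siGPR17. This probe also separated the groups, with a log2 difference of 0.45 ± 0.20 (SE), an interval from -0.088 to 0.99 and an adjusted p of 0.346 (limma). Leaving out each array in turn moved the first probe between 0.22 and 0.42 and the second between 0.27 and 0.64. The siNEG replicates stood in opposite order in the 2 probes, with replicate 2 the higher one in the first and the lower one in the second.

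Mobp, the other basic protein of compact myelin, was measured by 3 probes, all with a lower mean in siGPR17. Probe A_44_P1082019, with 10 spots on each array, gave 301 and 363 in siNEG and 296 and 269.7 in siGPR17. The groups were separate by a narrow margin, since the lower siNEG array was close to the higher siGPR17 array, and the log2 difference was -0.23 ± 0.13 (SE; adjusted p = 0.449, limma). Without siNEG replicate 2 it was -0.092. Probe A_64_P074471 gave 185 and 153 in siNEG and 128 and 144 in siGPR17, also without overlap, with a log2 difference of -0.31 ± 0.14 (SE; adjusted p = 0.352, limma), which was -0.18 without siNEG replicate 1. Probe A_44_P1156806 gave 22.4 and 24.8 against 18.2 and 24.1, and it was not well above background on siGPR17 replicate 1. Here the groups overlapped, and the log2 difference of -0.17 ± 0.17 (SE) became 0.034 without that array.

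Cnp, the enzyme of the cytoplasmic channels, had 1 probe, A_44_P100207. It gave 24021 and 28354 in siNEG and 22107 and 22001 in siGPR17, with both siGPR17 arrays lower and almost equal, while the siNEG arrays stood apart from each other. The log2 difference was -0.24 ± 0.12 (SE), the interval ran from -0.57 to 0.080 and the adjusted p was 0.380 (limma, n = 2 per group). Leaving out siNEG replicate 2, the higher of the siNEG arrays, reduced the difference to -0.12.

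Cldn11, the tight junction protein of the sheath, had 3 probes, and all of them separated the groups, with siGPR17 the higher one. Probe A_44_P1160249 gave 15129 and 16980.1 in siNEG and 18461 and 18970.4 in siGPR17. Its log2 difference was 0.22 ± 0.10 (SE), with an interval from -0.058 to 0.50 and an adjusted p of 0.362 (limma), and it was 0.14 without siNEG replicate 1. Probe A_44_P1160763 gave 10173 and 12468 in siNEG and 12714 and 12905 in siGPR17, a log2 difference of 0.19 ± 0.13 (SE; adjusted p = 0.516, limma), which was 0.039 without siNEG replicate 1. Probe A_43_P12808 gave 404 and 386 in siNEG and 467 and 546 in siGPR17, with a log2 difference of 0.36 ± 0.12 (SE), an interval from 0.036 to 0.67 and an adjusted p of 0.277 (limma). The 3 probes did not differ from each other in their change beyond their spread, with differences between probes from 0.038 to -0.17 on the log2 scale and overlapping groups for each pair.

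Gpm6b, a proteolipid family member found in neurons as well as in oligodendrocytes, was read by 2 probes with unlike values. Probe A_42_P806859, which was designed on a predicted transcript record, gave 40937 and 42269.7 in siNEG and 35360.4 and 32147 in siGPR17. Both siGPR17 arrays were lower, and the log2 difference was -0.30 ± 0.098 (SE), with an interval from -0.57 to -0.035 and an adjusted p of 0.273 (limma). Probe A_43_P13307, on the curated transcript record, gave 20388 and 21096 in siNEG and 20835 and 18949 in siGPR17, so the groups overlapped, with a log2 difference of -0.06 ± 0.098 (SE; adjusted p = 0.777, limma). Within each array, the first probe minus the second was 1.006 and 1.003 on the log2 scale in siNEG and 0.76 and 0.76 in siGPR17. This difference between the probes does not depend on the scaling of the arrays and was -0.24 ± 0.0015 (SE) apart between the groups (exact permutation p = 0.33, two-sided, the smallest that 2 against 2 arrays allow). That SE rests on 2 nearly equal values in each group, so it is a poor measure of precision. For comparison, spots of the first probe, 10 on each array, had an SD of 0.051 to 0.067 on the log2 scale within an array, and the 2 spots of the second one of 0.0042 to 0.046.

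Mag, an adhesion molecule of the layer that faces the axon, had 2 probes. Probe A_64_P019613, with 10 spots per array, gave 8243 and 9009 in siNEG and 9904 and 9892 in siGPR17. Both siGPR17 arrays were higher, with a log2 difference of 0.20 ± 0.095 (SE), an interval from -0.060 to 0.46 and an adjusted p of 0.373 (limma). Probe A_42_P646991 gave 1434 and 1470.4 in siNEG and 1625 and 1462 in siGPR17, and the groups overlapped at a log2 difference of 0.09 ± 0.10 (SE; adjusted p = 0.689, limma). Without siGPR17 replicate 1 the difference of this probe was 0.0096.

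Mog, the immunoglobulin-like protein of the outermost myelin surface and a late marker of maturation, showed the largest difference of the tested members. Probe A_43_P12283 gave 359 and 413 in siNEG and 256 and 228 in siGPR17, so that the groups were clearly apart. The log2 difference was -0.67 ± 0.12 (SE), with an interval from -1.01 to -0.34 and an adjusted p of 0.210 (limma, n = 2 per group), and it lay between -0.78 and -0.57 when each array was left out in turn. The adjusted p was 0.0387 with trend and robust spread in limma and 0.0461 after normexp, and ran up to 0.665 over the other settings. Probe A_44_P397725 gave 143 and 99.0 in siNEG and 90.0 and 108 in siGPR17. The groups overlapped there, with a log2 difference of -0.27 ± 0.22 (SE; adjusted p = 0.568, limma), and without siNEG replicate 1 it was -0.0073. The log2 differences of the 2 Mog probes lay apart by -0.40 ± 0.42 (SE) and overlapped between groups.

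**Figure D3:**
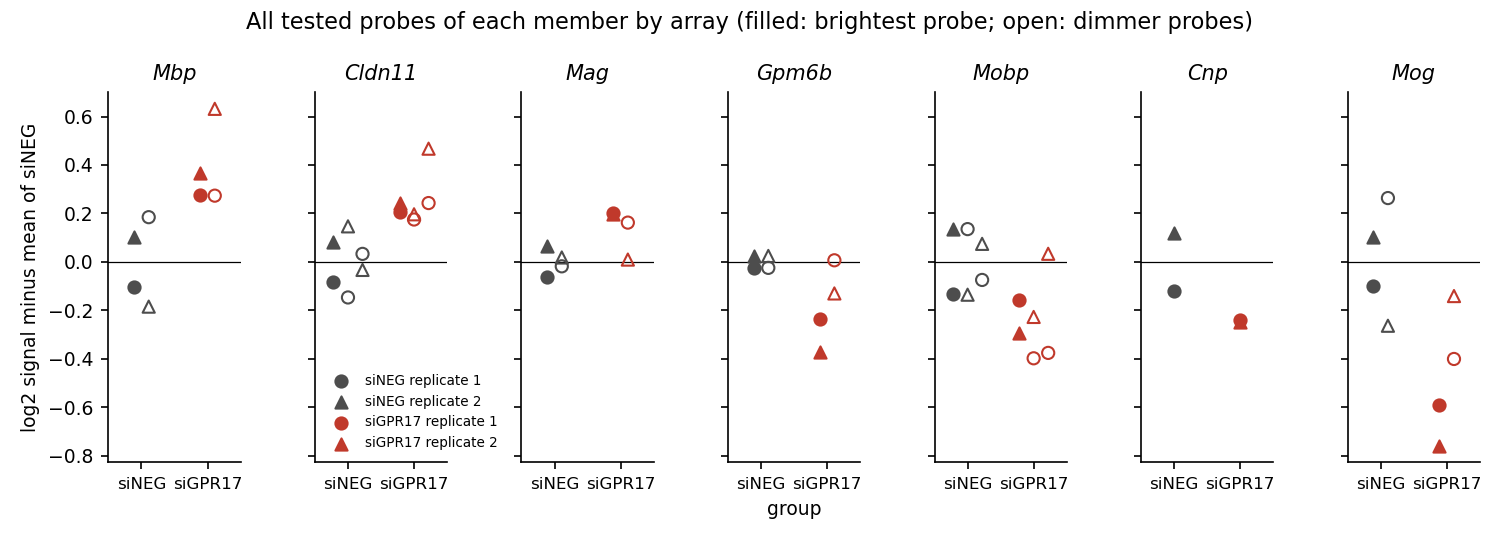
Log2 signal of every tested probe on every array, relative to the mean of that probe's siNEG arrays; filled symbols are the brightest probe of a gene and open symbols the dimmer ones, with circles for replicate 1 and triangles for replicate 2. Cldn11 is above its siNEG arrays in all 3 probes, Gpm6b is split between its probes, and the second Mog probe overlaps between groups.

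Mal, a proteolipid that travels with glycolipid-rich membrane, and Opalin, a late transmembrane glycoprotein of oligodendrocytes, were near background at this stage. The Mal probe A_44_P465329 gave 3.79 and 4.14 in siNEG and 3.81 and 3.52 in siGPR17, at background throughout, so no fold is given. The Opalin probe A_44_P776423 gave 11.8 and 19.1 in siNEG and 7.96 and 3.21 in siGPR17. It was well above background only on siNEG replicate 2 and entered no test. A dim limit was set for each siGPR17 array, as the higher of the probe's own signal and the lowest signal well above background. The mean of the 2 siNEG arrays, of which 1 measured Opalin, was 1.51-fold above the mean of these limits. This is no firm lower bound. On siNEG replicate 1 Opalin, at 11.8, was not well above background, although the lowest probe that was lay at 8.75.

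Differences between members within each array are free of the scaling between arrays, and they were taken for each pair of members. With the brightest probe of each of the 7 tested genes there were 21 pairs, and for 17 of them the difference did not overlap between the groups, where 54.5% of all gene pairs on the arrays did not. All 7 of these probes separated the groups on their own, 3 higher and 4 lower. A higher gene minus a lower one then cannot overlap, and pairs share genes, so the count is no separate result. No pair can give an exact permutation p under 0.33 with 2 against 2 arrays, and the lowest adjusted p over the 21 pairs was 0.412. The widest was Mbp minus Mog, at 9.10 and 9.11 on the log2 scale in siNEG and 9.97 and 10.23 in siGPR17, a difference between groups of 0.995 ± 0.13 (SE). The siNEG arrays were nearly equal here, and both siGPR17 arrays lay well above them. For Mbp minus Cnp the groups differed by 0.56 ± 0.051 (SE), for Mbp minus Gpm6b by 0.62 ± 0.14 and for Mbp minus Mobp, the basic proteins of compact myelin, by 0.55 ± 0.12. For Mbp minus Cldn11 the value was 0.10 ± 0.032 and for Mbp minus Mag 0.12 ± 0.060, both without overlap and both small.

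Cldn11 minus Mag, at 0.02 ± 0.028 (SE), overlapped between groups, as did the 3 pairs among Cnp, Mobp and Gpm6b, with values of 0.02 ± 0.065 for Mobp minus Cnp, 0.08 ± 0.11 for Mobp minus Gpm6b and 0.06 ± 0.12 for Cnp minus Gpm6b. By its brighter probe, Mog stood below these as well. The values were 0.45 ± 0.037 for Mobp minus Mog, 0.43 ± 0.082 for Cnp minus Mog and 0.37 ± 0.079 for Gpm6b minus Mog, none of which overlapped. The dimmer Mog probe, at a log2 difference of -0.27 ± 0.22 (SE) with overlapping groups, was not paired with other genes. The place of Mog below these genes therefore rests on the brighter probe alone. Among the 10 pairs of probes of the same gene, only the pair of Gpm6b did not overlap, where 42.4% of the 4027 such pairs on the arrays did not.

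**Figure D4:**
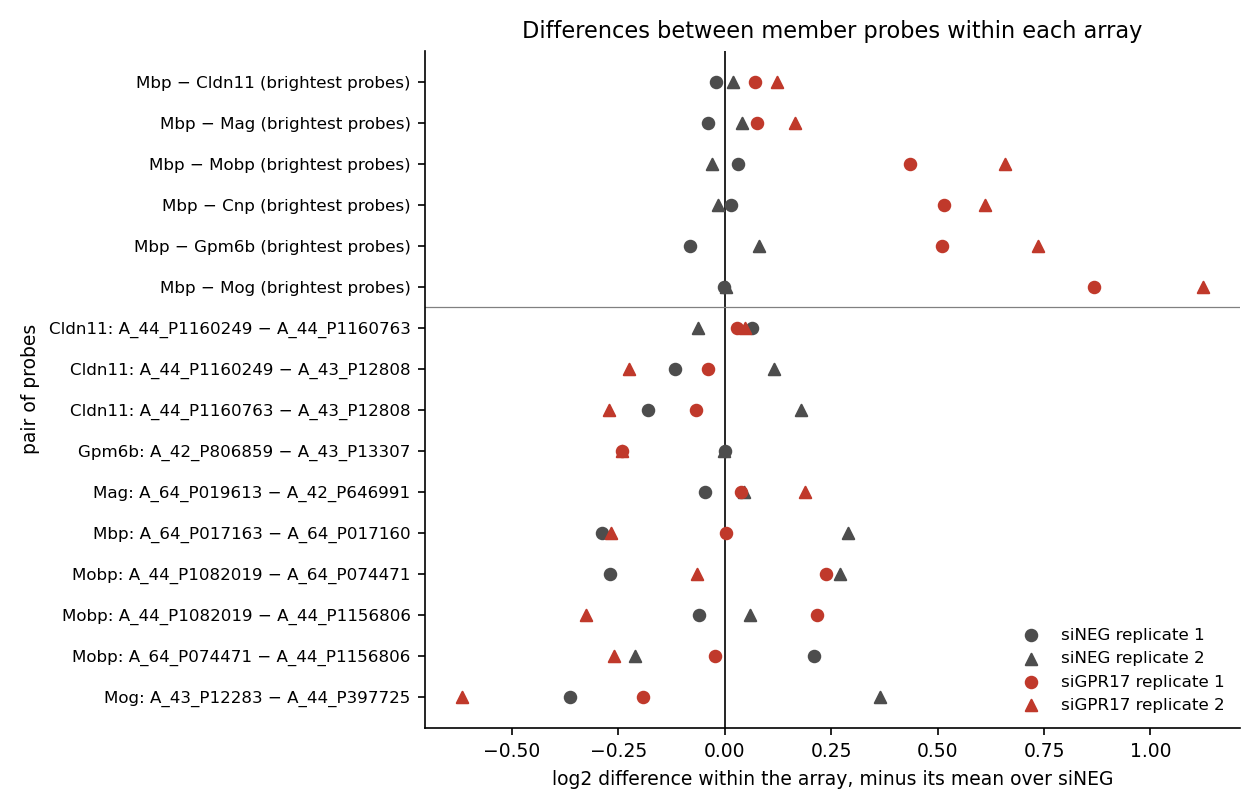
Log2 difference between 2 probes within each array, minus its mean over the siNEG arrays, with 1 symbol per array: above the line, Mbp against each other tested member by brightest probes, and below it the 10 pairs of probes of the same gene. Both siGPR17 arrays lie to the right of siNEG for each Mbp pair, furthest for Mog (0.995 on average), and of the same-gene pairs only that of Gpm6b separates the groups.

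The replicates of one group also differed in these genes. On siNEG replicate 2 the brightest probe of all 7 tested members was higher than on replicate 1, where 62.1% of 11656 genes were, and the log2 differences ran from 0.05 for Gpm6b through 0.21 for Mbp and 0.20 for Mog to 0.27 for Mobp. Of the dimmer probes, A_64_P017160 of Mbp, A_44_P397725 of Mog, A_64_P074471 of Mobp and A_43_P12808 of Cldn11 went the other way, at -0.37, -0.53, -0.27 and -0.066. A_44_P1156806 of Mobp was higher on replicate 2 as well, by 0.15. By the brightest probes, such replicate differences were about as large as the differences between groups for Mobp and Cnp, and smaller than that of the brighter Mog probe. The siNEG replicate differences exceeded the difference between groups in size for Cldn11 A_44_P1160763 (0.29 against 0.19), Mog A_44_P397725 (-0.53 against -0.27) and, slightly, Mobp A_44_P1082019 (0.27 against -0.23). Between the siGPR17 replicates this held for Mobp A_44_P1156806 (0.41 against -0.17), Mag A_42_P646991 (-0.15 against 0.09) and Gpm6b A_43_P13307 (-0.14 against -0.06). The numbers for all tested probes were an SD of 0.37 for the log2 difference between siNEG replicates and 0.29 between siGPR17 replicates.

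Genes that act with these proteins were taken as 6 lists. Over all of them 74 genes were tested, 29 were higher and 45 lower, and 0 passed the thresholds (limma), as did 0 of all 11656 genes by their brightest probe. At an unadjusted p under 0.05, 3 were higher and 6 lower, where 7.43% and 8.73% of all genes were. Their median log2 difference was -0.04, beside 0.0099 over all genes.

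Mbp mRNA is carried by hnRNP particles and its translation is released by Fyn kinase. Of 10 tested genes of this transport 7 were higher and 3 lower (median 0.02), and none reached an unadjusted p of 0.05. Hnrnpa2b1, which binds the transport element of the Mbp mRNA, gave 2541 and 1977 in siNEG and 2482 and 2545 in siGPR17, with overlap and a log2 difference of 0.16 ± 0.15 (SE). Khdrbs1, an RNA-binding protein, had -0.17 ± 0.11, Fxr1 0.13 ± 0.098 and Hnrnpa1 -0.10 ± 0.11.

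Among genes of axon contact and paranodal adhesion, the neighbours of Mag, 4 of 14 had a higher and 10 a lower mean (median -0.15). Cntn2, the adhesion molecule TAG-1 of the juxtaparanode, gave 411 and 304 in siNEG and 470 and 486 in siGPR17, a log2 difference of 0.44 ± 0.17 (SE; adjusted p = 0.320, limma). Omg, oligodendrocyte myelin glycoprotein, gave 2874 and 3167 in siNEG and 2374 and 2286 in siGPR17, which is -0.37 ± 0.099 (SE; adjusted p = 0.239, limma). Lpar1, a lysophosphatidic acid receptor, had -0.31 ± 0.11 and Ncam1, a neural cell adhesion molecule, -0.28 ± 0.11. The groups did not overlap in 10 of the 14 genes, where they did not in 53.4% of all genes.

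Enzymes of galactolipids and sulfatide, the lipids of the myelin membrane, were higher for 4 and lower for 7 of 11 tested genes, with a median of -0.05. Sptlc2, a subunit of the enzyme that starts sphingolipid synthesis, gave 261 and 287 in siNEG and 193 and 154 in siGPR17, a log2 difference of -0.67 ± 0.15 (SE; adjusted p = 0.216, limma). It passed the thresholds with trend and robust spread, at an adjusted p of 0.0588 in limma, and its adjusted p ran up to 0.665 over the other settings. Galc, which breaks down galactosylceramide, was at 22.2 and 25.6 in siNEG and 36.4 and 30.9 in siGPR17, or 0.49 ± 0.14. Aspa, which frees acetate from N-acetylaspartate, had 0.40 ± 0.11, and Gal3st1, the sulfatide-forming sulfotransferase, -0.27 ± 0.14. The groups did not overlap in 6 of the 11 genes, close to the 53.4% of all genes.

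Of the cytoskeleton, septin and inner tongue genes, 5 of 14 had a higher and 9 a lower mean (median -0.03). Evi2a gave 6509 and 6711 in siNEG and 5018 and 4562 in siGPR17, a log2 difference of -0.47 ± 0.098 (SE; adjusted p = 0.214, limma). Tppp3, of the tubulin polymerization-promoting family, had 0.38 ± 0.11, Car2, a carbonic anhydrase of oligodendrocytes, -0.31 ± 0.096, and Septin8, which is part of the septin filaments of mature myelin, -0.27 ± 0.10.

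The tetraspan, connexin and proteolipid relatives of Cldn11, Gpm6b and Mal were split, 6 of 12 above 0 and 6 below it (median -0.03). Cd82, a tetraspanin, gave 101 and 123 in siNEG and 89.6 and 57.6 in siGPR17, with -0.63 ± 0.26 (SE; adjusted p = 0.326, limma), and siGPR17 replicate 2 was by far the lowest array. Cldn12 had -0.33 ± 0.11, Gjb1, the connexin 32 gene, -0.30 ± 0.14, and Cd9, a tetraspanin of myelinating cells, -0.23 ± 0.11.

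Among transcriptional regulators of myelin genes 3 of 13 lay above 0 and 10 below it (median -0.08), and none reached an unadjusted p of 0.05. Myrf, whose product drives many of the members, gave 74887 and 96865 in siNEG and 72966 and 75078 in siGPR17, so the groups overlapped at a log2 difference of -0.20 ± 0.15 (SE). Sox8 had -0.35 ± 0.14, Nkx6-2, a homeodomain factor of oligodendrocytes, 0.28 ± 0.11, and Olig2 -0.24 ± 0.18. Sox10 was at -0.02 ± 0.11.

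**Figure D5:**
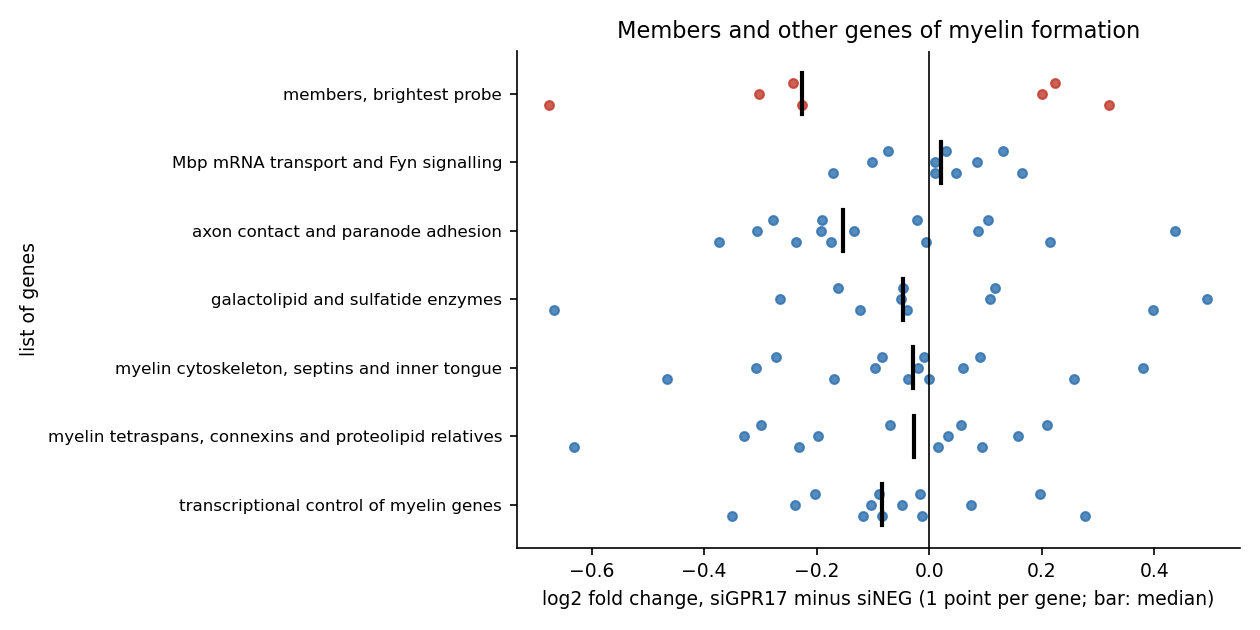
Log2 difference (siGPR17 minus siNEG) of the 7 tested members (red) and of every tested gene in the 6 lists (blue), by brightest probe, with a bar at each median. The median of the members is -0.23 and those of the lists lie between -0.15 for axon contact and paranode adhesion and 0.02 for Mbp mRNA transport; no gene passed the thresholds in limma, while Mog and Sptlc2 did with trend and robust spread.

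The genes whose 4 values, centred on their own mean, lay nearest to those of the brightest Mbp probe were Hcn2, Syngr3 and Fbxl15, at Euclidean distances of 0.021, 0.023 and 0.025 on the log2 scale, with log2 differences of 0.30, 0.32 and 0.31. Of 11649 other genes, 1047 lay within 0.2 of Mbp, so its profile was common. For Mog the nearest were Tbl1xr1, Ankrd34a and Sema4b, at 0.029, 0.036 and 0.036, with log2 differences of -0.67, -0.65 and -0.69, and 139 genes lay within 0.2. Likeness over 4 arrays says nothing of shared function or control.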

How the data were processed

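Transcript levels were measured on 4 one-color Agilent arrays, 2 siNEG and 2 siGPR17 samples, grouped by their labels. The authors deposited, per the file headers, spot intensities from Feature Extraction 10.7.3.1: processed intensities, from which that software had removed background and spatial trends, without normalization between arrays, and the uncorrected spot and background medians. Here log2 values were taken relative to each array's 75th percentile over non-control probes, outlier-flagged spots were left out and spots of a probe were averaged. Signals in the text are these values on the linear scale times 1 common factor. A probe entered the test if 2 or more of the 4 arrays had it well above background. The test was limma (version 3.58.1, under R 4.3.3), with lmFit, eBayes, treatment as the only term and Benjamini-Hochberg adjustment over 28016 probes. The thresholds, a fold of 1.5 and an adjusted p under 0.07, are those of the study. The steps were run on simulated data whose added changes were larger than any difference of a tested member. This does not show how well differences of the members' size are found.

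Probes were named by matching the transcripts listed in the files, without versions, to RefSeq genes of GRCr8, which named 21093 probes. The array design gives coordinates of another build, so none of its coordinates are printed. Named are all members, Gpr17, the 4 genes of each pathway list with the largest absolute log2 difference, and the 3 genes nearest in profile to Mbp and to Mog, with Sox10 and single cell type markers added after their values were seen. A gene with several tested probes stands in lists by its brightest. The members, the lists (6 of pathways and 8 of cell type markers, from general knowledge) and the tests were chosen with earlier results of these data known.

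Alternatives were normexp with an offset of 50 (on spot medians), quantile, median and spike-in scaling, the replicate number as a block, each array left out, other filters, a floor under dim signals, trend and robust spread in eBayes, and the unpaired t-test of the study's general methods (the methods' t-test). The number of arrays limits the precision.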

Additional observations from a re-analysis of the deposited data

How the results depend on the processing

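The number of probes past the thresholds was 1, and it became 242 with normexp, 420 with trend and robust spread, 736 with the methods' t-test unadjusted, and 0 with spike-in scaling, without a filter, with a filter on all 4 arrays, with the floor, with the methods' t-test after Benjamini-Hochberg adjustment, with the replicate block and, from 0 to 0, with each array left out. Member probes past them were 0, and 1, the brighter Mog probe, with normexp, with trend and robust spread and with the unadjusted methods' t-test. Among Gpr17, the genes named from the pathway lists for their largest differences and the genes nearest in profile, Gpr17, Sptlc2, Tbl1xr1, Ankrd34a and Sema4b passed under the latter pair of settings. With normexp Gpr17 and Ankrd34a did. Sox10 and the other cell type markers were not followed singly under the alternatives. The members' median of -0.06 became 0.00080 with normexp, 0.043 with spike-in scaling, -0.11 without a filter, 0.012 with the filter on all 4 arrays, -0.23 by the brightest probes, -0.18 by the mean per gene, and -0.037 to 0.0096 with each array left out, so its sign is not settled. Spike-in scaling moved the median of all tested probes by 0.10.

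The log2 difference reversed for Mobp A_44_P1156806 (0.0065 with normexp, -0.38 to 0.034 with each array left out, the last without siGPR17 replicate 1), Gpm6b A_43_P13307 (0.043 with spike-in scaling, -0.13 to 0.0067, the last without siGPR17 replicate 2), Hnrnpa1 (0.0024 with spike-in scaling, -0.21 to 0.0022, the last without siNEG replicate 2) and Hnrnpa2b1 (-0.016 without siNEG replicate 2 to 0.35); the cause was not tested. The other 13 tested member probes kept their direction under every alternative run.

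Samples of the 2 groups share replicate numbers, but the deviations of same-numbered samples correlated at -0.065, so the numbers were not taken to pair them; with the replicate block the brighter Mog probe had an adjusted p of 0.390 (limma) and 0 probes passed. Near background, Opalin carries only a rough comparison with the dim limit and Mal no fold.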
